A study of Mus musculus with 9 samples.

Results

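Cxcl1, Il6st and Zfp36l1 were followed over all arrays of a study of reversible arrest in muscle cells. Every clone that the arrays' annotation names as 1 of these 3 genes, older symbols included, was taken, which gave 4 clones of 15294 and 3 genes of 7612 named. Cxcl1 had the clone H3051F10, Il6st the clones H3086G09 and H3088E11, and Zfp36l1 the clone H3128C07. The genes were chosen by their measured log2 ratios of G0 MB over MB, so their values in that comparison are a description with no test.

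C2C12, a mouse myoblast line, gave quiescent myoblasts held in suspension for 48 h in semi-solid medium (G0 MB), myotubes in differentiation medium (MT) and proliferating myoblasts in growth medium (MB). Suspension-arrested fibroblasts (G0 FB), which the labels name NIH 3T3 and the study's methods C3H10T1/2, were the fourth state. Each spotted cDNA array compared RNA of 2 states in 2 colours. G0 MB was set over MB on 3 arrays, over MT on 2 and over G0 FB on 2, and MT was set over MB on 2. No allele or agent was named in the labels, each line was a single cell line, and a treatment field that tells of replating stood on all 9 arrays, against their titles. The source of the G0 MB on 1 of the arrays with G0 FB opens with NIH 3T3, although C2C12 stands in the cell line field. The study's methods tell of a dye reversal and a biological replicate for each pair of states. The labels do not say which arrays came from separate cultures, so the spread between arrays may be technical.

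Direction has to be read before any ratio. The pair of MT over MB arrays, both with MT named as Cy5, had a correlation of -0.49 across clones when read by their dye labels. The dye reversal that the methods give for each pair of states does not show in the labels of these arrays. Each title also names a test and a reference state, and the authors' table of log ratios, read in that order, had the opposite sign from the labelled dyes on 5 of 9 arrays, namely replicate 1 of MT over MB and all 4 arrays that set G0 MB over MT or over G0 FB. Both readings gave 1 sign on each array that set G0 MB over MB. In the other comparisons the direction is not settled, and each value is given by the labelled dyes and then in title order. Mylpf, the fast myosin regulatory light chain of differentiated muscle, was chosen after its values were seen. By the labels its log2 ratio was -4.68 and 12.70 on the arrays of MT over MB, and 4.20 and 3.02 on those of G0 MB over MT. MB lay under its limit where the ratio was 12.70, so that size is not exact. So by the labels this muscle gene was lower in MT than in MB on 1 array, and higher in G0 MB than in MT on both arrays. In title order it was higher in MT than in MB, and lower in G0 MB than in MT, on each of these arrays. The other muscle genes tested were split. Tpm2 had the signs of Mylpf, at -3.42 and 2.00 in MT over MB by the labels. Tpm1 had -0.83 and -0.69 there, and Ttn 0.61 and 0.27, so in title order the arrays of each lay on opposite sides of 0.

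Between 36.4% and 61.1% of spots of an array lay above the detection limit in at least 1 channel, and duplicate spots correlated with r between 0.85 and 0.935. In G0 MB over MB, replicates 1 and 2 shared a clone layout and correlated with r = 0.68, while replicate 3 was on the other layout and correlated with them at 0.202 and 0.204. The labelled states were checked with markers. Of 15 proliferation genes tested in G0 MB over MB, 9 lay past 1.6-fold lower in G0 MB on every array measured, against 9.37% of all clones. The median log2 ratio of the list was -2.31, against -0.08 for all clones tested. For each of these 9 genes G0 MB lay under its limit on at least 1 array, so the sizes are not exact. Against G0 FB, by the labels, 1 of 6 fibroblast markers tested lay past 1.6-fold higher and 1 lower in G0 MB on both arrays, and 2 of 3 muscle genes lay lower in G0 MB, against 5.07% of all clones higher and 3.33% lower, with the opposite signs in title order. RNA came from whole cultures, so more cells with a transcript and more transcript per cell cannot be told apart.

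Cxcl1 is a secreted chemokine that draws neutrophils through the receptor Cxcr2, and its transcription is a textbook target of NF-kB. Il6st encodes gp130, the signalling subunit shared by the receptors of interleukin 6, leukemia inhibitory factor and related cytokines, which passes the signal to JAK kinases and STAT3. Zfp36l1 is a zinc finger protein that binds AU-rich elements in mRNAs and brings deadenylases to them, so that the bound mRNA decays. Chemokine and cytokine mRNAs, which carry such elements, are known targets of this family, and gp130 cytokines act on muscle stem cells and their differentiation.

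The promoters are shown because Cxcl1 and Zfp36l1 were both higher in G0 MB than in MB, and Il6st less so. RefSeq (GRCm38.p6) holds 1 promoter entry for each of the 3 genes, from 250 bases before the annotated start to 50 after it. Cxcl1 lies on chromosome 5 at 90891245 to 90893121 on the plus strand, with the window chr5:90890995-90891294. Il6st lies on chromosome 13 at 112464070 to 112506860 on the plus strand, with the window chr13:112463820-112464119. Zfp36l1 lies on chromosome 12 at 80107760 to 80113013 on the minus strand, with the window chr12:80112964-80113263. Each window is written on its gene's strand, and capitals mark matches to any of 8 motifs, searched on both strands.
Cxcl1: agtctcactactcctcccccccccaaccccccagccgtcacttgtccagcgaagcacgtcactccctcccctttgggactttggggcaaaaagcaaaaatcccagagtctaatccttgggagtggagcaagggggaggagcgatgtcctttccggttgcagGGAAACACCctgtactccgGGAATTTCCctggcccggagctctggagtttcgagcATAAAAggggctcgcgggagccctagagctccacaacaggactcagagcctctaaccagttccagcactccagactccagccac
Il6st: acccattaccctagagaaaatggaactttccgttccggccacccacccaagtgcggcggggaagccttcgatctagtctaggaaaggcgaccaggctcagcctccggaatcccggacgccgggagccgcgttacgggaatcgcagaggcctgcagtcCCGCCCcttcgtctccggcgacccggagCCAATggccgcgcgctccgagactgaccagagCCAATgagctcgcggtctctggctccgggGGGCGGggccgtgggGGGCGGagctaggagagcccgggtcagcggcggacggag
Zfp36l1: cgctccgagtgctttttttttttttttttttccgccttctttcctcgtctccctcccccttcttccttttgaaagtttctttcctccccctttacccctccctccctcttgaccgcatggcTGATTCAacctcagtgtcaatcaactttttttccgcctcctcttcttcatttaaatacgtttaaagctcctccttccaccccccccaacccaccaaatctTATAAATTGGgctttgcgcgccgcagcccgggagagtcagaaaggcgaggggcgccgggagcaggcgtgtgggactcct

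The motifs were a loose kappaB form (GGNNTTTCC), a STAT form (TTCNNNGAA), a TATA box (TATAAA), its variant with ATAAAA, the CCAAT box, the GC box (written GGGCGG), an AP-1 form (TGANTCA) and a cyclic AMP element (TGACGTCA). The Cxcl1 window held the kappaB form at 89 bases before the start, on the minus strand, and again at 70 bases, on the plus strand, and ATAAAA at 34 bases. This kappaB form was loosened by its first base after the windows had been seen. With a G before it on its strand, as first searched, 1.63% of windows held it, and both matches of Cxcl1 have that G. Among 32851 promoter windows, 5.82% held that kappaB form and 18.5% held ATAAAA. The Il6st window held CCAAT at 65 and 33 bases before the start and the GC box at 93 and 4 bases before it and 11 bases after it, with these motifs in 37.4% and 35.7% of all windows. The Zfp36l1 window held the AP-1 form at 129 bases before the start, TATAAA at 29 bases and, overlapping it by its last base, CCAAT on the minus strand at 24 bases. The AP-1 form was in 7.81% of all windows and TATAAA in 13.6%. None of these 3 windows held the letters of the STAT form or the cyclic AMP element, which 8.3% and 1.79% of windows hold. The guanine and cytosine content was 58.7% for Cxcl1, 68.3% for Il6st and 52% for Zfp36l1. A match describes the letters only and was not tested as a binding site.

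Cxcl1, the chemokine, was bright in G0 MB and under the detection limit in MB on all 3 arrays that set it beside MB. Its duplicate spots read 28347 and 35508 in G0 MB against 913 and 888 in MB on replicate 1, 24406 and 16559 in G0 MB against 1252 and 296 in MB on replicate 2, and 8844 and 8797 in G0 MB against 446 and 972 in MB on replicate 3. On each array this clone was kept only through its G0 MB channel. Of all clones, 5.13% were past 1.6-fold higher in G0 MB on every array measured. The log2 ratios were 5.14, 5.05 and 3.74, with a mean of 4.64 ± 0.78 (SD, n = 3 arrays). Since MB lay under its limit on each array, the fold is a bound. With the limit in place of the MB signal, the arrays gave log2 ratios of 2.70, 2.86 and 1.57. The mean of these bounds was 2.38, or 5.2-fold higher in G0 MB.

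**Figure D1:**
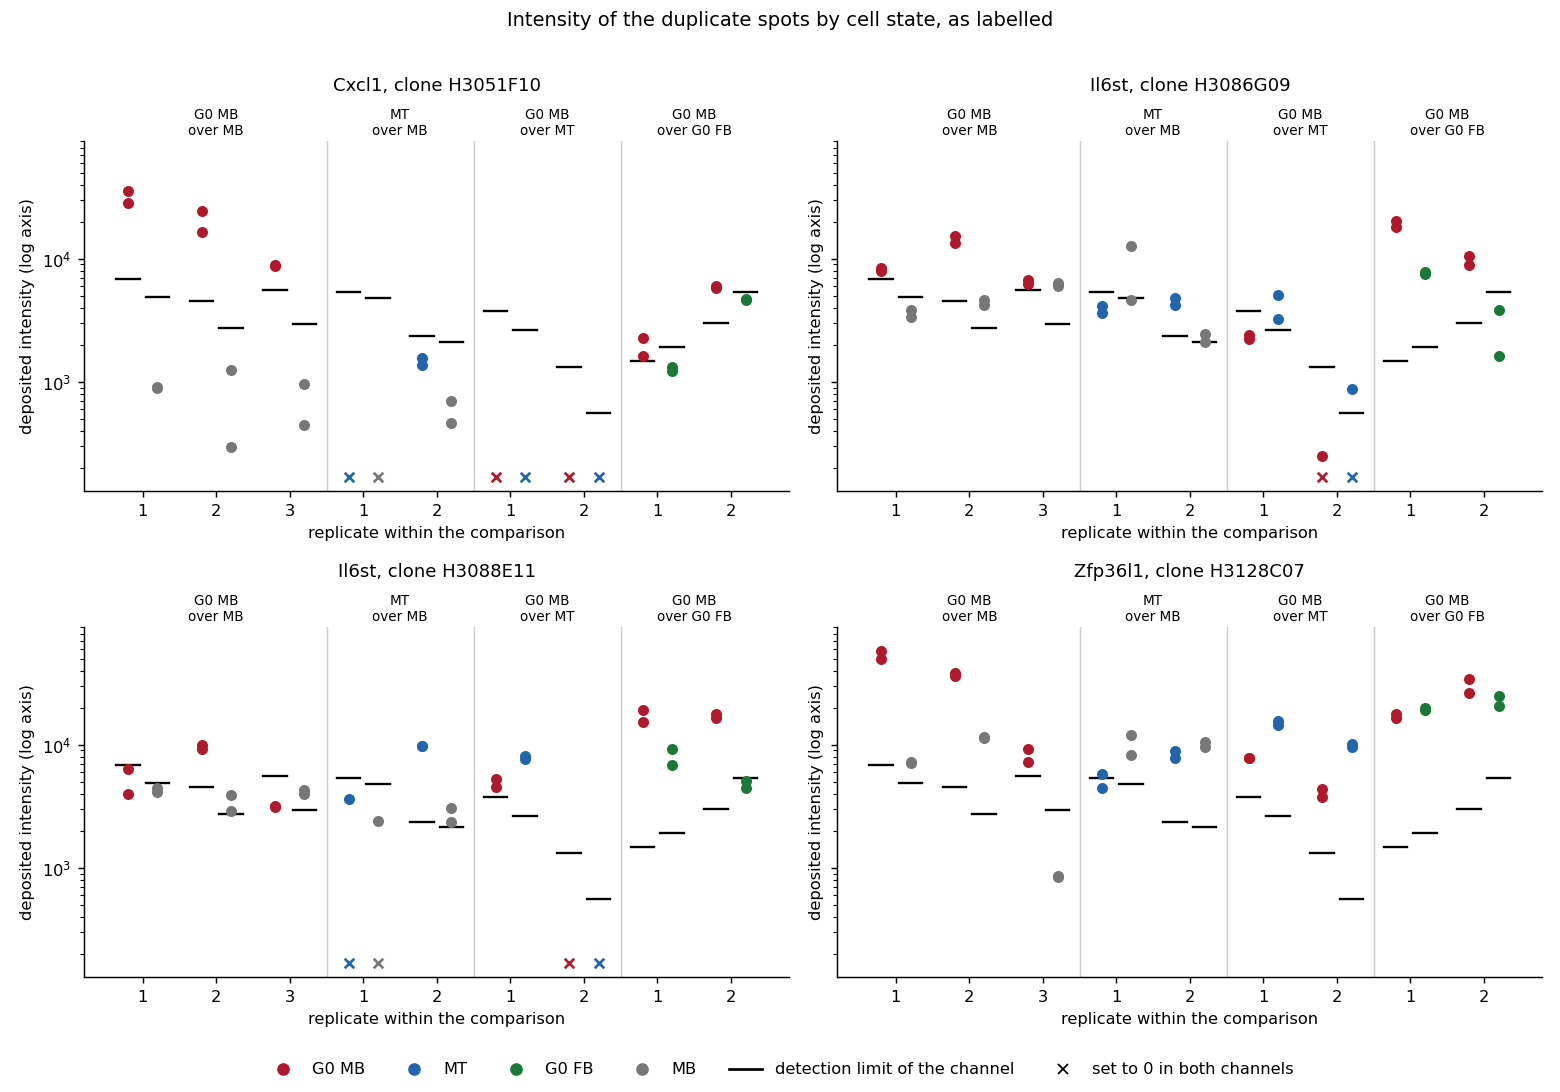
Deposited intensity (log axis) of the duplicate spots of the 4 clones on each of 9 arrays, by labelled cell state; black bars are the detection limit of the channel and crosses are spots set to 0 in both channels. Cxcl1 in G0 MB stands above its limit on the 3 arrays with MB, where MB is below its own, and is at 0 on both arrays that set G0 MB over MT.

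In the other comparisons Cxcl1 gave little. Its spots were set to 0 in both channels on replicate 1 of MT over MB and on both arrays of G0 MB over MT, so no level or ratio can be given there. On replicate 2 of MT over MB its spots were 1375 and 1579 in MT against 467 and 697 in MB, all under the limits of 2349 and 2131. Thus the gene that was above its limit in G0 MB on each array with MB as the other state had no kept spot in any of the 4 arrays that carry MT.

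Against G0 FB, Cxcl1 was kept on both arrays. The labelled dyes gave 2263 and 1634 in G0 MB against 1326 and 1219 in G0 FB on replicate 1, and 6050 and 5766 in G0 MB against 4697 and 4675 in G0 FB on replicate 2. The G0 FB channel lay under its limit on both arrays, so the mean of the bounds was only 1.04-fold. The mean log2 ratio was 0.47 ± 0.19 (SD, n = 2) by the labels and -0.47 in title order, and neither passed the test (limma, adjusted p = 1.0 by the labels and 0.997 in title order). In title order the dim state under the limit would be G0 MB.

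Il6st, the receptor subunit, was measured by 2 clones, of which H3086G09 gave a value on all 9 arrays and H3088E11 on 6. Beside MB, H3086G09 read 7977 and 8491 in G0 MB against 3840 and 3371 in MB on replicate 1, 15302 and 13339 in G0 MB against 4661 and 4188 in MB on replicate 2, and 6258 and 6770 in G0 MB against 6356 and 6018 in MB on replicate 3. G0 MB was above MB on replicates 1 and 2, and the spots overlapped on replicate 3. The log2 ratios were 1.19, 1.69 and 0.07, with a mean of 0.99 ± 0.83 (SD, n = 3), or 1.98-fold. MB lay under its limit on replicate 1, and with the limit in its place the mean was 0.84, or 1.79-fold.

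The other clone did not give the same answer on every array. H3088E11 had no spot above a limit on replicate 1. On replicate 2 it read 9307 and 9881 in G0 MB against 3878 and 2891 in MB, a log2 ratio of 1.52, and on replicate 3 it read 3162 and 3153 in G0 MB against 4257 and 4002 in MB, a log2 ratio of -0.39, where G0 MB lay under its limit. Neither clone was past 1.6-fold on all arrays measured, which Cxcl1 and Zfp36l1 were, as were 5.13% of clones in that direction. The 2 clones had values on 6 arrays in common and lay on the same side of 0 on 5, and differed by 0.10 to 0.87 on the log2 scale.

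The direction of Il6st against MT and G0 FB turned with the reading. In MT over MB, H3086G09 had 4527.59 in MT against 2273.86 in MB on replicate 2 and 4109 in MT against 12813 in MB on replicate 1, from 1 kept spot with MT under its limit, so the arrays disagreed by the labels. The duplicate of that spot, under both limits, read 3606 in MT against 4595 in MB. The mean log2 ratio was -0.32 ± 1.86 by the labels and 1.32 ± 0.46 (SD, n = 2) in title order, with limma adjusted p of 1.0 and 0.301. In title order both arrays were past 1.6-fold, as were 6.46% of clones in that direction, with replicate 1 resting on its 1 kept spot. With every spot above 0 used, the mean by the labels was -0.0008. In G0 MB over MT the mean was -1.31 ± 0.72 (SD, n = 2) by the labels and 1.31 in title order (limma adjusted p = 0.711 and 0.336), with G0 MB, as labelled, under its limit on both arrays, and with the limit in its place no fold remained. Replicate 2, at -1.82 by the labels, rested on 1 kept spot, its duplicate being set to 0 in both channels. H3088E11 was kept on 1 array of each of these comparisons, at 1.87 in MT over MB in both readings and at -0.68 in G0 MB over MT by the labels, 0.68 in title order.

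Between G0 MB and G0 FB the ratios of both Il6st clones had the same sign on both arrays, without passing the test. H3086G09 read 18092 and 20146 in G0 MB against 7592 and 7845 in G0 FB on replicate 1, and 8833 and 10628 in G0 MB against 1625 and 3840 in G0 FB on replicate 2. H3088E11 read 19043 and 15259 in G0 MB against 9261 and 6907 in G0 FB, and 16354 and 17937 in G0 MB against 4422 and 5040 in G0 FB. By the labels every spot in G0 MB was above every spot of that clone in G0 FB on the same array. These are duplicate spots of the same array, and the share of all clones with such spots was not counted. The mean log2 ratios were 1.63 ± 0.46 and 1.48 ± 0.54 (SD, n = 2), and in title order -1.63 and -1.48. The G0 FB channel lay under its limit on replicate 2 for both clones, and with the limit in its place the sizes were 1.07 and 1.38 on the log2 scale. The limma adjusted p was 1.0 for both clones by the labels, and 0.541 and 0.908 in title order. Both clones were past 1.6-fold on both arrays, as were 5.07% of the 6211 clones tested in that direction in either reading.

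**Figure D2:**
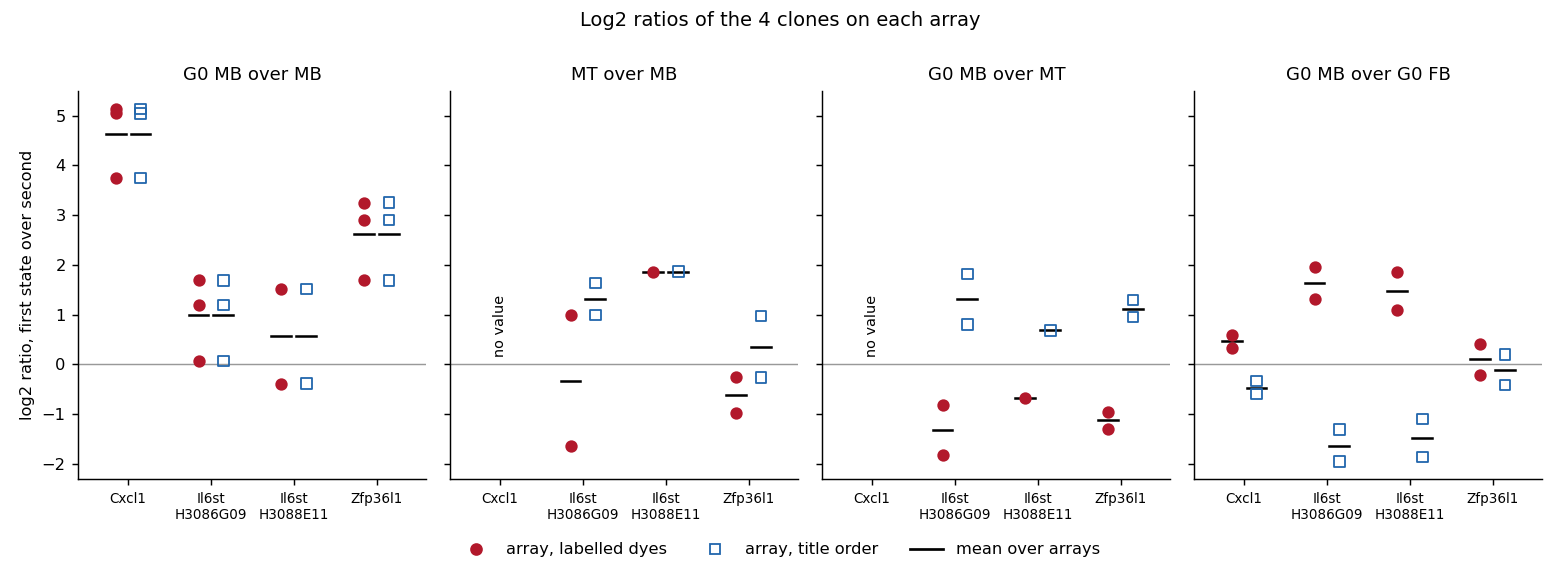
Log2 ratio of each clone on each array, first state over second, for the 4 comparisons, by the labelled dyes (filled circles) and in title order (open squares), with the mean over arrays as a bar. The readings coincide in G0 MB over MB and lie on opposite sides of 0 for Il6st where G0 MB is set over MT or G0 FB.

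Zfp36l1, the decay factor, read 58069 and 49574 in G0 MB against 7276 and 7091 in MB on replicate 1, 38005 and 35930 in G0 MB against 11577 and 11333 in MB on replicate 2, and 7254 and 9177 in G0 MB against 864 and 847 in MB on replicate 3. G0 MB was above MB on every array, with MB under its limit on replicate 3. The log2 ratios were 2.90, 1.69 and 3.25, with a mean of 2.61 ± 0.82 (SD, n = 3). With the limit in place of MB on replicate 3, that array gave 1.46 and the mean was 2.02, or 4.04-fold. Both Cxcl1 and Zfp36l1 were past 1.6-fold on all 3 arrays, also with the limit in place of an MB signal under it.

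In MT over MB, Zfp36l1 was lower in MT by the labels on both arrays, at 5061.49 in MT against 9955.77 in MB on replicate 1 and 8363.48 in MT against 9993.33 in MB on replicate 2. The mean log2 ratio was -0.62 ± 0.51 (SD, n = 2) by the dyes and 0.36 ± 0.87 with the titles' order, in which the arrays lay on opposite sides of 0, and the limma adjusted p was 1.0 and 0.999. Beside MT, G0 MB gave 7791.44 in G0 MB against 15075.9 in MT on replicate 1 and 4033.84 in G0 MB against 9894.29 in MT on replicate 2. This was a log2 ratio of -1.12 ± 0.24 (SD, n = 2) by the labels and 1.12 in title order, with limma adjusted p of 0.607 and 0.455. The size was 2.18-fold, and both arrays were past 1.6-fold, as were 5.51% of clones in that direction in either reading.

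Zfp36l1 was close to even between arrested myoblasts and fibroblasts. It read 17041.6 in G0 MB against 19651.3 in G0 FB on replicate 1 and 30085.9 in G0 MB against 22675.8 in G0 FB on replicate 2, so the arrays lay on opposite sides of 0. The mean log2 ratio was 0.10 ± 0.43 (SD, n = 2) by the labels and -0.10 in title order, with limma adjusted p of 1.0 and 0.997. Intensities were set side by side within an array only, because each array was normalized by itself, so no order of the 4 states on 1 scale was made.

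Across comparisons, limma called 27 of 6903 clones in G0 MB over MB (0.391%), 0 of 5373 in MT over MB (0.0%, with 70 at an unadjusted p under 0.05), 2 of 5134 in G0 MB over MT (0.039%) and 5 of 6211 in G0 MB over G0 FB (0.0805%). Outside G0 MB over MB, both Zfp36l1 and Il6st H3086G09 were tested in all 3 comparisons, and Cxcl1 and Il6st H3088E11 only in G0 MB over G0 FB, and none was called. In title order the calls were 204, 33, 19 and 5, or 2.96%, 0.614%, 0.37% and 0.0805%, and again none of these tests gave a call. G0 MB is shared by 3 of the comparisons.

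The partners of these genes were followed in 15 lists of pathway genes and cell markers, 290 genes in all, of which 127 were on the arrays. Of the list genes tested, limma called 0 of 78 in G0 MB over MB, 0 of 59 in MT over MB, 0 of 54 in G0 MB over MT and 0 of 70 in G0 MB over G0 FB by the labels, with 23, 0, 5 and 8 at an unadjusted p under 0.05. Over all clones tested that share was 22.5%, 1.3%, 7.95% and 3.62%. In title order 6 were called in G0 MB over MB, which were Irak1, Fn1 and Dcn as higher and Rrm1, Ccna2 and Ccnb1 as lower in G0 MB, and 1, Tpm2, the beta tropomyosin of muscle, in MT over MB at a log2 ratio of 2.71 and adjusted p = 0.0279.

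Around gp130, the ligands were scarcely measured. Lif and Ctf2 were the 2 of 10 gp130 cytokines on the arrays, and neither could be tested in any comparison. The partner receptor Il11ra1 had a log2 ratio of 0.23 in G0 MB over MB. Of the JAK-STAT genes, 4 were tested there, none was past 1.6-fold on every array, and their median log2 ratio was 0.89. Jak1 and Jak2, the kinases bound to gp130, and Stat3, chosen after their values were seen, had 1.06, 1.23 and 0.73. Their limma adjusted p was 0.191, 0.31 and 0.537. The other gene tested, Stam2, had -0.42, with limma adjusted p of 0.444. The arrays were uneven, with Jak2 at 2.24 and 0.22 and Stat3 at -0.19 and 1.65. MB lay under its limit for Jak1 on replicates 1 and 3 and for Jak2 on replicate 1. Of the STAT3 and immediate early targets, 8 were tested, none past 1.6-fold on every array, with a median of 0.24. The 2 brakes tested lay on opposite sides of 0, so their median of -0.20 describes neither. Pias1 had 1.32 and Ptpn2 -1.72, with limma adjusted p of 0.22 and 0.194. For Ptpn2, G0 MB lay under its limit on both arrays measured.

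Around Cxcl1, the 2 other chemokines tested in G0 MB over MB had a median log2 ratio of -1.19, and none was past 1.6-fold on every array. For Cxcl12, G0 MB lay under its limit on replicates 1 and 3, and for Ccl27a on both arrays measured, so these sizes are not exact. On replicate 2, with neither state under its limit, Cxcl12 had 0.02. Of 8 NF-kB pathway genes tested, 2 were higher in G0 MB past 1.6-fold on every array measured, against 5.13% of all clones, with a median of 0.78. They were Irak1 and Tnip1, an inhibitor of NF-kB, which was measured on 2 arrays at 1.81 and 1.10. MB was under its limit on both of these arrays for Tnip1, which was thus kept only through G0 MB, and on replicate 1 for Irak1. Irak1, a kinase of the interleukin 1 receptor, had log2 ratios of 4.89, 2.54 and 1.12, a mean of 2.85, with limma adjusted p of 0.113 by the labels and 0.039 in title order. Leukocyte markers, a source of chemokines in tissue, had 1 gene tested in this comparison, Fcer1g, at -0.92, and their part in the result was not tested.

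Around Zfp36l1, of 11 binders tested in G0 MB over MB, 0 were higher and 2 lower in G0 MB past 1.6-fold on every array measured, against 9.37% of all clones lower, and the median log2 ratio was -0.39. The 2 were Hnrnpab and Hnrnpa0, the second of these at -0.72 and -1.31 on 2 arrays. Hnrnpab, an RNA-binding protein, had -3.13, -2.23 and -0.73, a mean of -2.03 with limma adjusted p = 0.124. Of 13 deadenylation and decay genes tested, 1, Btg1, at 0.86 and 1.27 on 2 arrays, was higher on every array measured, against 5.13% of all clones, with a median of -0.26.

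Markers moved beside these values. The proliferation genes Ccna2 (cyclin A2), Rrm1 (ribonucleotide reductase), Top2a (topoisomerase II) and Plk1 (a mitotic kinase) had mean log2 ratios of -3.24, -3.09, -3.01 and -2.35 in G0 MB over MB. For each of them G0 MB lay under its limit on 2 or 3 of the 3 arrays, so these sizes are not exact. The limma adjusted p was between 0.0662 and 0.113 by the labels. The fibroblast markers Fn1 (fibronectin) and Dcn (decorin) had 3.15 and 2.72, with limma adjusted p of 0.0593 and 0.0606, and 2 of 7 fibroblast markers were past 1.6-fold higher in G0 MB on every array measured, against 5.13% of all clones, with MB under its limit on all 3 arrays for Dcn. Their part in the values of Cxcl1 and Zfp36l1 was not tested. The muscle list had 4 genes tested and none past 1.6-fold on every array, with a median of 0.12.

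**Figure D3:**
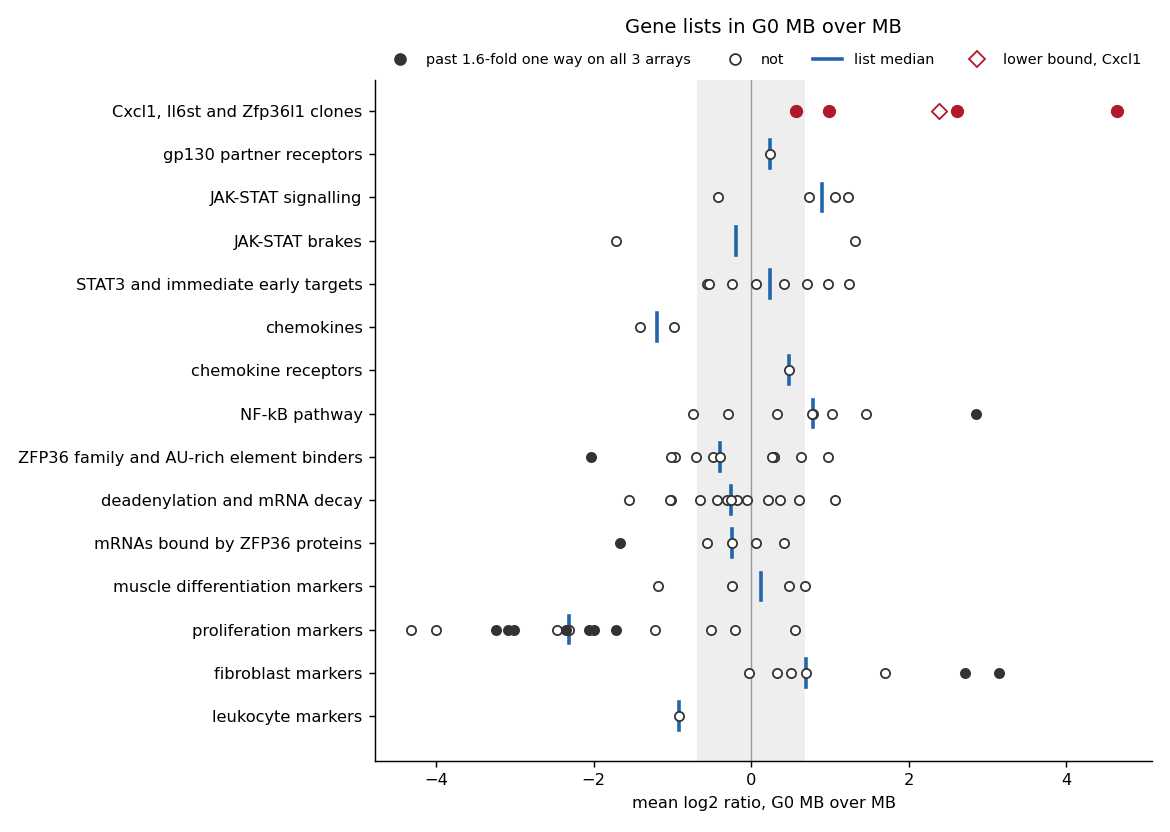
Mean log2 ratio in G0 MB over MB of the 4 clones (red) and of each tested gene of the lists, filled where past 1.6-fold one way on all 3 arrays, with the list median as a blue bar; the grey band is within 1.6-fold. The open diamond is the lower bound of Cxcl1, 2.38, which lies left of Fn1 and Irak1, so no rank of Cxcl1 among the list genes is given. The lowest values belong to proliferation markers.

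The genes whose ratios were most like those of each gene were found by the uncentred correlation over the arrays where its brightest clone had a value, a measure that does not turn with the direction of an array. It is a description over few arrays that share the same RNA states. For Cxcl1, over 5 arrays and 2487 genes, they were Ctsl (0.99), Ctsa (0.989), Tpp1 (0.987), Bnip3 (0.985) and Paip2 (0.982). Ctsl, the lysosomal protease cathepsin L, had 2.73, 2.59 and 2.04 in G0 MB over MB and 0.91 and 0.25 against G0 FB by the labels. Bnip3, a mitochondrial receptor of autophagy, had 3.59, 3.57 and 3.05 in G0 MB over MB and -0.34 and -0.32 against G0 FB.

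For Zfp36l1, over 9 arrays and 2004 genes, the likest were Itm2b (0.924), Hexa (0.917), Ergic3 (0.906), Ctsl by another clone (0.897) and Cst3 (0.897). Itm2b, a membrane protein, had 3.07, 2.45 and 2.89 in G0 MB over MB and -1.26 and -1.48 in G0 MB over MT by the labels. For Il6st, over 6 arrays of H3088E11 and 2243 genes, they were Mllt3 (0.908), Lpp (0.891), B4galt1 (0.869), Col4a1 (0.862) and Polr1b (0.854). Col4a1, a basement membrane collagen, had 2.68 against G0 FB by the labels on replicate 1. Of the arrays compared for Cxcl1, 3 are those of G0 MB over MB, whose values chose the genes, so a high likeness among Cxcl1 and Zfp36l1 follows from the choice. Among themselves, Cxcl1 and Zfp36l1 had 0.931 over 5 arrays, while Il6st had 0.444 with Cxcl1 over 4 arrays and 0.158 with Zfp36l1 over 6.

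**Figure D4:**
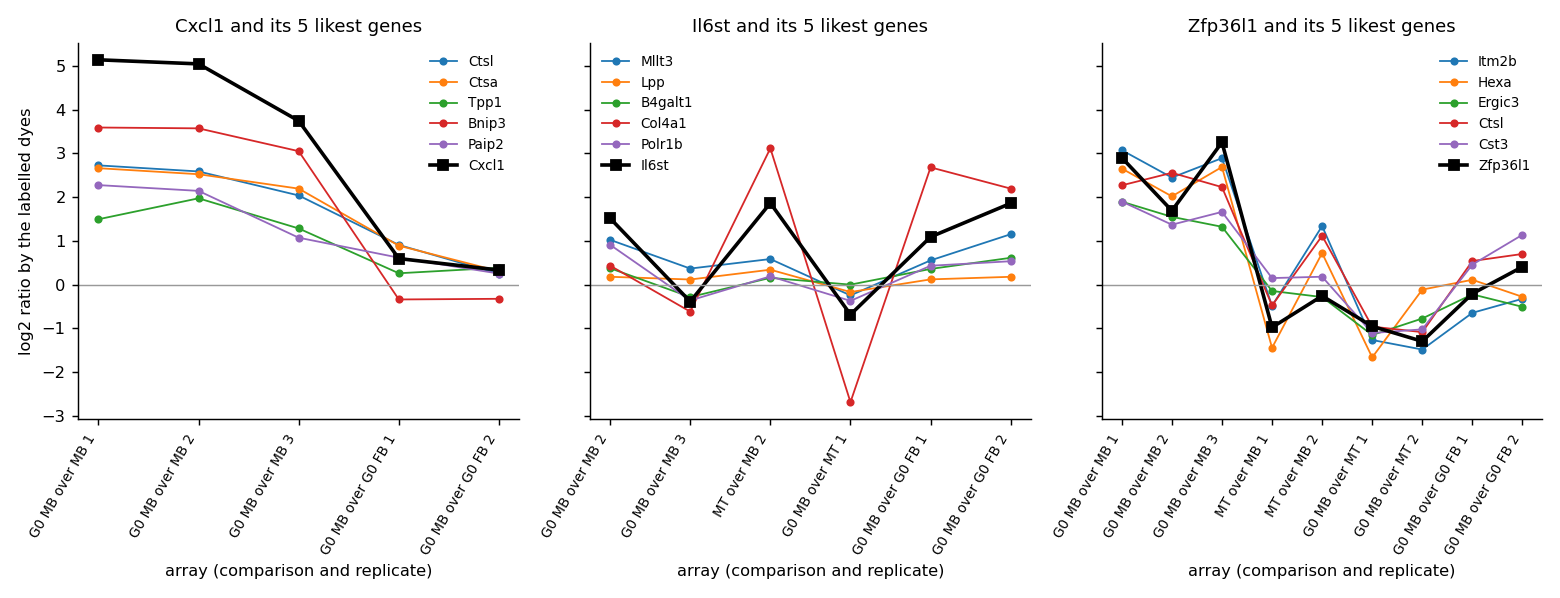
Log2 ratio by the labelled dyes on each array where the brightest clone of Cxcl1, Il6st or Zfp36l1 (black) had a value, with its 5 likest genes in colour. For Cxcl1 all lines are above 1 on the 3 arrays with MB and below 1 on the 2 arrays with G0 FB.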

How the data were processed

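Two-colour NIA 15K mouse cDNA arrays were used. ArrayVision quantification, background subtraction and LOWESS within each array were done by the authors before the Cy3 and Cy5 intensity values were deposited, with filtered spots at 0 in both channels; versions are not given in the sources used here. A deposited log2 column holds the ratio of the intensities. A deposited mark of 0 or 1 gives spots above the detection limit, and the authors' table of log2 ratios served as an alternative and gave the title order. In it the MT over MB replicates stand under each other's names, and replicate 1 of G0 MB over MB has the reverse sign of its file.

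A spot was kept where it was above the limit in at least 1 channel, the limit being the highest intensity among unmarked spots. The mean of duplicate spots was used. Limma 3.58.1 in R 4.3.3 (lmFit and eBayes) fitted 1 coefficient per comparison to 9 arrays, with prior degrees of freedom of 3.52. Clones with values on at least 2 arrays and 2 residual degrees of freedom were tested, adjusted by Benjamini and Hochberg, and called at an adjusted p under 0.04 and past 1.6-fold (log2 0.67), the methods' limits for SAM. Simulated data were used to check the fit. Python 3.11.15 and pandas 2.3.3 made the tables.

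The genes and lists were chosen with earlier results of these data known. Named were the 3 genes, list genes that were called, otherwise up to 4 per list with the largest mean among those past 1.6-fold on all 3 arrays of G0 MB over MB, and the 5 likest genes of each. A list gene that this rule named is not reported here. A gene of several clones stood in lists by its brightest clone. Of 11140 clones with a symbol, 3693 symbols were updated and 473 matched no current gene in RefSeq. Replicate numbers were not used as pairs. Precision is limited by the number of arrays.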

Additional observations from a re-analysis of the deposited data

How the results depend on the processing

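The direction of the mean in G0 MB over MB held for each clone under every alternative setting with a fit. Il6st H3088E11, at 1.52 on replicate 2 and -0.39 on replicate 3, had no fit with either of these arrays left out. Il6st without a clone name stands for H3086G09 in this section. Cxcl1 moved to 3.53 with the arrays scaled and 5.30 with repeated loess, and a loop fit gave 1.53 for Zfp36l1 and 0.33 for Il6st. In title order, and from the authors' table of ratios, the signs turned to -0.47 for Cxcl1, -1.63 and -1.48 for the Il6st clones and -0.10 for Zfp36l1 in G0 MB over G0 FB, and to 1.31 for Il6st and 1.12 for Zfp36l1 in G0 MB over MT. In MT over MB title order, or turning replicate 1, gave 1.32 for Il6st and 0.36 for Zfp36l1, the authors' ratios gave 0.99 and 0.36, and turning replicate 2 instead gave -1.32 and -0.36. A loop fit gave 0.66 for Il6st and 1.02 for Zfp36l1 in MT over MB and 0.51 for Zfp36l1 in G0 MB over MT, where Il6st was -0.33, and -0.36 with repeated loess. With duplicate spots as replicates Il6st was 0.12 in MT over MB, and calls were made for Il6st in G0 MB over G0 FB (1.63) and Zfp36l1 in G0 MB over MT (-1.12). The cause of these changes was not tested.

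Leaving out 1 array at a time gave 4.39 to 5.09 for Cxcl1, 0.63 to 1.44 for Il6st H3086G09 and 2.30 to 3.08 for Zfp36l1 in G0 MB over MB. In MT over MB the ranges were -1.64 to 0.99 for Il6st and -0.98 to -0.26 for Zfp36l1, and in G0 MB over MT -1.82 to -0.80 and -1.29 to -0.95. Against G0 FB they were 0.33 to 0.60 for Cxcl1, 1.31 to 1.96 for Il6st and -0.21 to 0.41 for Zfp36l1. The arrays left with 1 per comparison were assumed to vary like the others.

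Clones called in G0 MB over MB numbered 27, and 204 in title order, 86 with separate fits, 16 with a dye term, 0 with a loop fit or scaled arrays, 49 median centred, 297 with both channels above the limit, 3 with every spot above 0, 2938 with duplicate spots as replicates and 1001 past 1.6-fold with no test. The ratios of G0 MB over MB are the same by the labels and in title order, while the spread of a clone in the fit is shared over all 9 arrays. With replicate 3 left out 567 were called, and 0 without replicate 1 or 2. In MT over MB the 0 became 33 in title order or with either array turned, 20 from the authors' table, 163 with duplicate spots and 105 past 1.6-fold, and 0 to 37 with an array left out. For G0 MB over MT the 2 became 19 in title order, 16 with both channels above the limit, 843 with duplicate spots, 554 past 1.6-fold and 0 under separate fits, the dye term, the loop fit, median centring, scaling, the authors' table and every spot above 0, with 0 to 56 on leaving out an array. For G0 MB over G0 FB the 5 became 0 with separate fits, 3 from the authors' table or every spot above 0, 2 with both channels, 286 with duplicate spots and 522 past 1.6-fold, and 1 to 9 with an array left out. List genes called numbered 0, and 7 in title order, with either array of MT over MB turned or with separate fits, 6 with both channels, 54 with duplicate spots, and 0 to 11 with an array left out.

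The correlation of deviations between comparisons was -0.43 to 0.03. It cannot decide whether the replicate numbers pair the arrays. By the labels of replicates 1 and 2, G0 MB had the same dye by number over MB and over MT, and the other dye over G0 FB. So dye and pairing cannot be told apart. With the replicate block, Zfp36l1 was 2.32 and Il6st 1.10 in G0 MB over MB, no clone of these genes changed its call, and the clones called were 73 in G0 MB over MB and 0 in each other comparison, with 2 list genes called. Cxcl1 and Il6st H3088E11 could not be fitted with the block. Spots under the detection limit give bounds only.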
